A study of Mus musculus with 6 samples.

Results

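Angiogenic ligands and endothelial-type receptors were followed in an ovarian cell line with and without Trp53, the gene of the tumour suppressor p53. The set holds the genes Vegfa, Vegfb, Vegfc, Flt1, Kdr, Pecam1, Esam, Egfl7, Angptl4 and Angptl7, chosen by gene symbol, and all 10 had a row among the 41327 genes of the count table. The cells were ID8, an immortalized line from the ovarian surface epithelium of C57BL/6 mice, labelled as epithelial cells. The Trp53_KO group (genotype Trp53-/-, n = 3) was set against the Trp53_WT group (genotype Trp53+/+, n = 3). All 6 libraries came from untreated, asynchronously growing cells and were made from total RNA. The labels do not say whether the Trp53_KO cells were 1 clone or whether the replicates were separate cultures, so a p-value here is read against library-to-library variation that may be technical alone.

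Vascular endothelial growth factors (VEGFs) are secreted proteins that bind receptor tyrosine kinases on endothelial cells and drive vessel growth. VEGFA and VEGFB bind FLT1, VEGFA also binds KDR, which carries most of the growth signal in endothelium, and VEGFC binds FLT4, the receptor best known from lymphatic vessels. Ovarian tumour cells are known to secrete VEGFA, while FLT1, KDR, PECAM1, ESAM and EGFL7 are named mainly as genes of endothelial cells, and angiopoietin-like proteins are secreted relatives of the angiopoietins that do not bind the angiopoietin receptor.

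Library totals ranged from 16597529 to 19574772 counts in Trp53_KO and from 15319956 to 19954170 counts in Trp53_WT. Trp53 itself was at 26.8 ± 2.4 CPM (a gene's count relative to the total of its library, with totals scaled by the TMM method) in Trp53_KO and at 104 ± 6.4 CPM in Trp53_WT (SD, n = 3 each), and every Trp53_KO library was below every Trp53_WT library. Trp53_WT replicate 1 stood apart from the other Trp53_WT libraries, with a chi-square per degree of freedom of 27.5 and 26.9 against them, where those 2 libraries differed by 2.01. Values without that library are given beside those named genes examined in this way whose call or direction they change. They were not examined for Cd68, Itga2b, Des, genes named by correlation, or chromosome neighbours of the members other than Mtor, Tex2 and Vsig2.

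Of the 10 genes, 9 had enough counts to be tested and Kdr had none in any library. Angptl7, Pecam1 and Esam rose in Trp53_KO, Vegfc, Flt1 and Egfl7 fell, and Vegfa, Vegfb and Angptl4 did not pass the test (quasi-likelihood test of edgeR, adjusted by Benjamini-Hochberg over all tested genes, threshold 0.05). Among 13651 tested genes, 14.1% were higher, 16.1% were lower and 30.3% were called in either direction. Pecam1 and Angptl7 passed the filter on low counts through the Trp53_KO libraries alone, and the genes were chosen with earlier results of these data known, so the count of 6 called genes among 9 is a description. Of genes named below from related lists, Serpinf1, Acta2 and Lrrn4 also passed through the Trp53_KO libraries alone. Fgf1 and Pparg passed through the Trp53_WT libraries alone, and the calls of all these genes are likewise a description. The libraries of the genotypes did not overlap for 7 of the 9 genes, Vegfa included, against 46.0% of all tested genes.

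**Figure D1:**
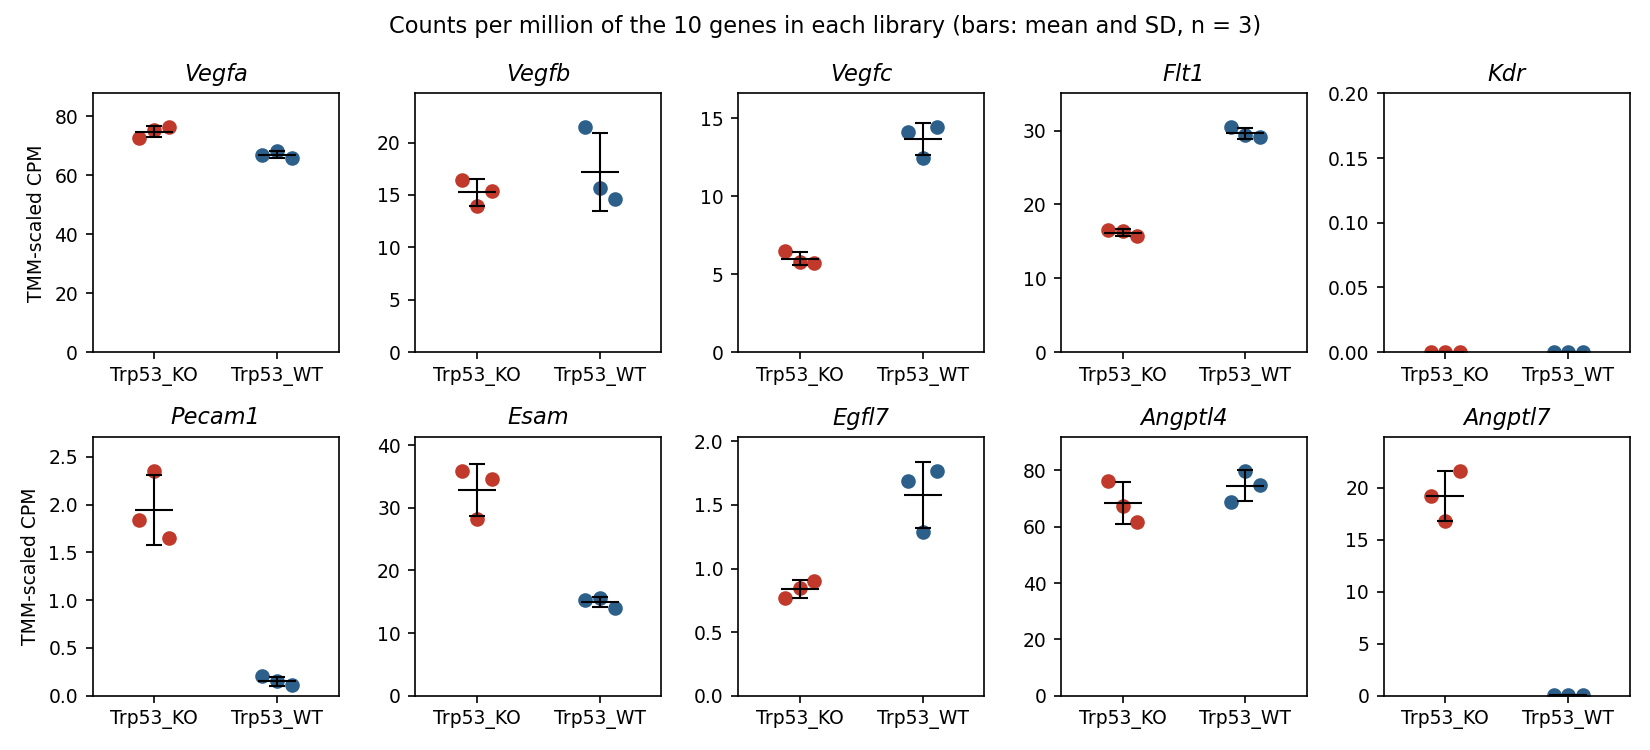
Each panel plots the TMM-scaled CPM of a gene in the 3 Trp53_KO libraries (left, red) and the 3 Trp53_WT libraries (right, blue), on an axis that starts at 0, with the mean and SD as black bars. Angptl7, Pecam1 and Esam sit higher in every Trp53_KO library, Vegfc, Flt1 and Egfl7 lower, and Kdr is at 0 throughout.

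Among the VEGF ligands, Vegfc was the only member that passed the test. Vegfc, the lymphatic growth factor, had 6.48, 5.80 and 5.69 CPM in Trp53_KO replicates 1 to 3 and 14.1, 12.5 and 14.4 CPM in Trp53_WT replicates 1 to 3. Every Trp53_KO library was below every Trp53_WT library, and the fold change of 0.439 corresponded to -1.19 ± 0.11 on the log2 scale (SE; edgeR, Benjamini-Hochberg adjusted p = 3.9e-05). The fall stayed between -1.24 and -1.13 on that scale under all 15 alternative settings.

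Vegfa, the main angiogenic ligand, had 72.7, 75.4 and 76.3 CPM in Trp53_KO and 66.8, 68.2 and 65.9 CPM in Trp53_WT. All Trp53_KO libraries were above all Trp53_WT libraries, and the spread within each genotype was small, at a coefficient of variation of 2.55% in Trp53_KO and 1.70% in Trp53_WT. The difference was also small, with a fold change of 1.12 and a 95% interval of 0.984 to 1.27, and it did not pass after adjustment (log2 fold change 0.16 ± 0.07 SE, unadjusted p = 0.037, edgeR with Benjamini-Hochberg adjusted p = 0.10).

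Vegfb, a ligand of FLT1 alone among the VEGF receptors, had 16.5, 13.9 and 15.4 CPM in Trp53_KO and 21.5, 15.6 and 14.6 CPM in Trp53_WT. The groups overlapped, and the highest value belonged to Trp53_WT replicate 1. The fold change was 0.892, with a 95% interval of 0.672 to 1.18 (log2 fold change -0.17 ± 0.15 SE, edgeR with Benjamini-Hochberg adjusted p = 0.44), and without Trp53_WT replicate 1 the log2 fold change was 0.02 (adjusted p = 0.93).

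The make-up of the VEGF ligands differed between genotypes in the parts held by Vegfa and Vegfc. Of the summed RPKM (CPM divided by the exon length in kb) of Vegfa, Vegfb, Vegfc, Figf, which encodes VEGFD, and Pgf, Vegfc held 8.17 ± 0.51% in Trp53_KO and 17.2 ± 1.6% in Trp53_WT (SD, n = 3 each). Vegfa held 58.4 ± 2.4% in Trp53_KO and 48.4 ± 3.9% in Trp53_WT, and Vegfb held 31.8 ± 1.9% in Trp53_KO and 32.8 ± 4.2% in Trp53_WT. These shares are set by the same counts and were not tested.

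Of the VEGF receptors in the set, Flt1 fell and Kdr was not detected. Flt1, whose product binds VEGFA and VEGFB and also exists as a soluble decoy, had 16.5, 16.4 and 15.7 CPM in Trp53_KO and 30.4, 29.4 and 29.1 CPM in Trp53_WT. The genotypes were far apart relative to their spread, with coefficients of variation of 2.72% in Trp53_KO and 2.45% in Trp53_WT. The fold change was 0.547 (log2 fold change -0.87 ± 0.08 SE, edgeR with Benjamini-Hochberg adjusted p = 2.2e-05), and the call held in all 15 alternatives. Counts per gene do not separate the transcripts of the soluble and the membrane-bound form.

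Kdr had 0 counts in all 6 libraries. A count of 0 allows up to 3 counts, which is 0.0276 CPM over the 6 libraries together and 0.148 to 0.203 CPM in a single library. Bnip3 and Adm, genes that many cell types express, also had 0 counts in every library, so a 0 in this table may be a gene that the annotation or the counting left out, and whether that holds for Kdr was not tested.

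The 3 members known from the surface or matrix of endothelium did not move together: Pecam1 and Esam rose and Egfl7 fell. Pecam1, also called CD31, an adhesion molecule of endothelial cells, platelets and leukocytes, had 36, 39 and 31 counts in Trp53_KO and 3, 3 and 2 counts in Trp53_WT. These are 1.84, 2.35 and 1.65 CPM in Trp53_KO and 0.203, 0.148 and 0.107 CPM in Trp53_WT, so the rise ended at a low level. The log2 fold change was 3.64 ± 0.34 (SE; edgeR, Benjamini-Hochberg adjusted p = 3.5e-05), and the ratio of summed counts, 106 against 8, was 12.9 after scaling to library size, with an exact 95% interval of 6.33 to 30.7 for counting error alone.

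Esam, an adhesion molecule of endothelial tight junctions and platelets, had the highest level per length of the 3. It had 35.9, 28.1 and 34.5 CPM in Trp53_KO and 15.3, 15.6 and 14.0 CPM in Trp53_WT. The lowest Trp53_KO library, replicate 2, was still above every Trp53_WT library. The fold change was 2.19, with a 95% interval of 1.78 to 2.70 (log2 fold change 1.13 ± 0.11 SE, edgeR with Benjamini-Hochberg adjusted p = 3.7e-05).

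Egfl7, a secreted protein of the endothelial matrix, was near the lower limit of testing. It had 15, 14 and 17 counts in Trp53_KO and 25, 26 and 33 counts in Trp53_WT, which are 0.765, 0.845 and 0.904 CPM in Trp53_KO and 1.69, 1.29 and 1.77 CPM in Trp53_WT. The groups did not overlap, and the log2 fold change was -0.90 ± 0.24 (SE; edgeR, Benjamini-Hochberg adjusted p = 0.017). DESeq2 did not make this call (adjusted p = 0.091), nor did the fits that left out Trp53_WT replicate 3 (0.071) and Trp53_KO replicate 1 (0.070), and adjusted p ran from 0.016 to 0.091 across all alternatives. In the annotation Egfl7 shares 264 exon bases with the model Gm20532 on the same strand and 64 with Agpat2 on the other strand, so part of its few counts is uncertain. Agpat2 was at 17.81 CPM in Trp53_KO and 21.95 CPM in Trp53_WT and was not called (adjusted p = 0.080).

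Egfl7 also hosts Mir126a, the gene of a microRNA that is abundant in endothelium. Its mature strand is shown because it is the best known product of the Egfl7 locus, with the seed (bases 2 to 8) in capitals, on chr2:26591402-26591423, plus strand, GRCm38.p6, from RefSeq.
mmu-miR-126a-3p: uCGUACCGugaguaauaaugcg
The rows Mir126a and Mir126b each had 0 counts in all libraries. A total RNA library is not made to capture mature microRNAs, so these rows give no level for the strand printed above.

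The angiopoietin-like genes showed the largest contrast in the set. Angptl7, a secreted protein best known from the cornea and the outflow tissue of the eye, had 376, 278 and 407 counts in Trp53_KO and 1, 1 and 1 counts in Trp53_WT. These are 19.2, 16.8 and 21.6 CPM in Trp53_KO and 0.0675, 0.0495 and 0.0536 CPM in Trp53_WT, a pattern of presence and near absence. The ratio of summed counts, 1061 against 3, was 345 after scaling to library size, with an exact 95% interval of 118 to 1677 for counting error alone. The edgeR log2 fold change of 8.26 depends on the prior count at such low values (Benjamini-Hochberg adjusted p = 2.3e-08), and by its size Angptl7 ranked 30 among 13651 tested genes.

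Angptl4, an inhibitor of lipoprotein lipase that is induced by fasting, PPAR factors and hypoxia, was not called. It had 76.3, 67.3 and 61.7 CPM in Trp53_KO and 68.9, 79.9 and 74.9 CPM in Trp53_WT, and the groups overlapped. The fold change was 0.918, with a 95% interval of 0.765 to 1.10 (log2 fold change -0.12 ± 0.09 SE, edgeR with Benjamini-Hochberg adjusted p = 0.36).

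The promoter window of Angptl7 is shown because this gene had the widest gap between genotypes. It covers chr4:148500413-148500712, minus strand, GRCm38.p6, from RefSeq, with 250 bases before and 50 after the annotated start, and capitals mark its match to the p53 consensus decamer, the repeating unit of the p53 response element.
Angptl7 promoter: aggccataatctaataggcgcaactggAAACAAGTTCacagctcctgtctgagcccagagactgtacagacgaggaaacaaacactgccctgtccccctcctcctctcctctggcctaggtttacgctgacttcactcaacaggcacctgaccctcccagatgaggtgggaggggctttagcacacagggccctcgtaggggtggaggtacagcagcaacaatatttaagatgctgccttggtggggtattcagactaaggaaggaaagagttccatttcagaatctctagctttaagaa
The match lies from base -223 to -214 relative to the start, and 8.36% of 32851 RefSeq promoter windows of this length hold at least 1 such match, so its presence is a description and not a binding site. RefSeq windows matched 7 of the 10 genes with 10 windows in all, and no other member window held the decamer. The Angptl7 window had 4 CG dinucleotides, a count that 38.0% of all windows do not exceed, and no GC box (GGGCGG, either strand), where 35.7% of all windows hold a GC box. The Flt1 window had 29 CG dinucleotides and 3 GC boxes, the Vegfc window 35 and 2, the Vegfb window 31 and 4 and the Kdr window 19 and 2. Of the 3 Egfl7 windows, 1 had 31 CG dinucleotides and 4 GC boxes, and the other two had 5 and 8 CG dinucleotides and, like the Angptl7 window, no GC box. The 2 Vegfa windows had 16 and 10 CG dinucleotides with 2 and 1 GC boxes. The median over all windows was 7 CG dinucleotides. The core letters of the hypoxia response element, ACGTG on either strand, stood in 1 of the 10 windows, a downstream start of Vegfa, against 19.6% of all windows. No binding or methylation was measured in these samples.

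**Figure D2:**
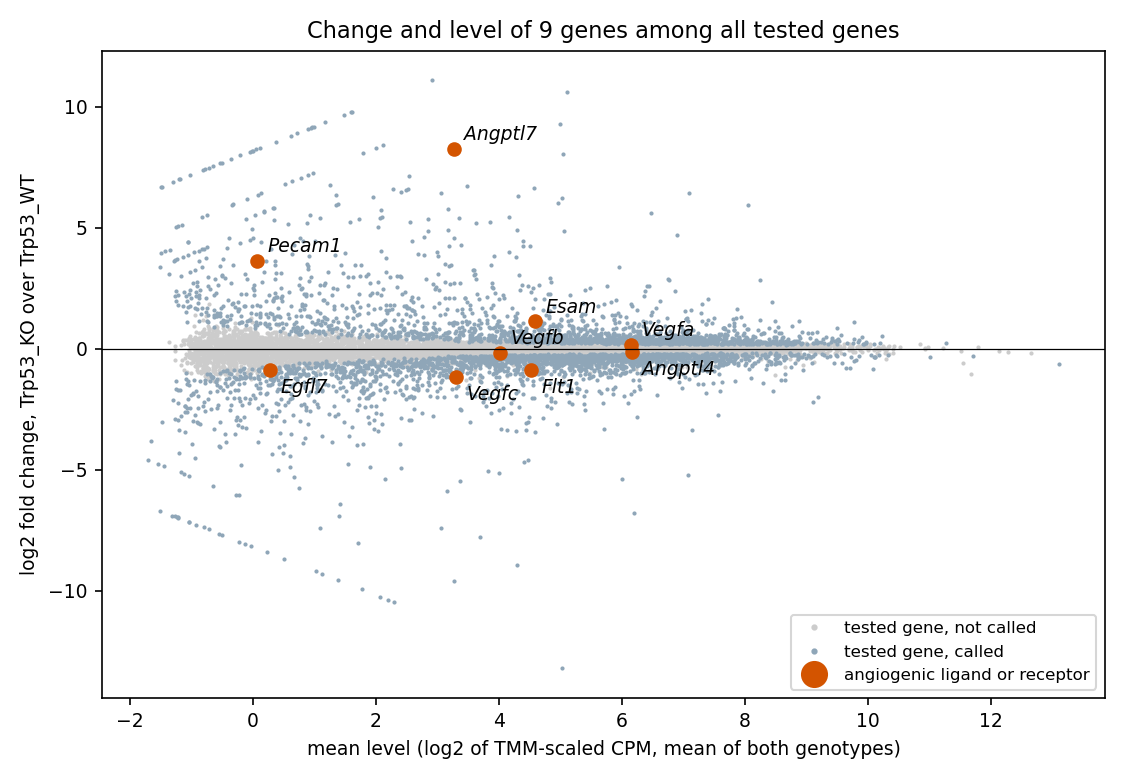
Each point is a tested gene, placed by its mean level (x axis, log2 of TMM-scaled CPM) and its log2 fold change of Trp53_KO over Trp53_WT (y axis), with called genes in blue-grey and the 9 tested angiogenic genes in orange. Angptl7 at 8.26 and Pecam1 at 3.64 lie far above the body of the plot, and Vegfa, Vegfb and Angptl4 lie within 0.2 of 0.

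In rank by size of change, the members spread over nearly the whole table. Angptl7 and Pecam1 were larger in change than 99.8% and 98.3% of tested genes by rank, and Vegfc, Esam, Egfl7 and Flt1 stood at 92.3%, 91.9%, 89.3% and 88.9%. Vegfb, Vegfa and Angptl4 stood at 42.2%, 40.7% and 32.8%. The median log2 fold change of the 9 tested members was -0.12, against -0.02 for all tested genes.

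Levels between genes were compared as RPKM over the summed exon length of each gene. In Trp53_KO the order was Angptl4 (19.3 ± 2.1), Vegfa (17.5 ± 0.44), Esam (11.5 ± 1.4), Vegfb (9.51 ± 0.79), Angptl7 (8.90 ± 1.1), Vegfc (2.44 ± 0.17), Flt1 (1.20 ± 0.03), Pecam1 (0.312 ± 0.059), Egfl7 (0.234 ± 0.020) and Kdr at 0 (RPKM, SD, n = 3). The libraries of Angptl4 and Vegfa overlapped in level there, as did those of Esam and Vegfb, those of Vegfb and Angptl7, and those of Esam and Angptl7. In Trp53_WT the order was Angptl4 (21.1 ± 1.5), Vegfa (15.6 ± 0.27), Vegfb (10.7 ± 2.3), Vegfc (5.58 ± 0.43), Esam (5.23 ± 0.29), Flt1 (2.19 ± 0.05), Egfl7 (0.441 ± 0.072), Angptl7 (0.0264 ± 0.0044), Pecam1 (0.0245 ± 0.0077) and Kdr at 0. In that genotype Vegfc and Esam overlapped, and so did Angptl7 and Pecam1. Esam thus stood above Vegfc in Trp53_KO and beside it in Trp53_WT, and Angptl7 held place 5 in Trp53_KO and place 8 in Trp53_WT.

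**Figure D3:**
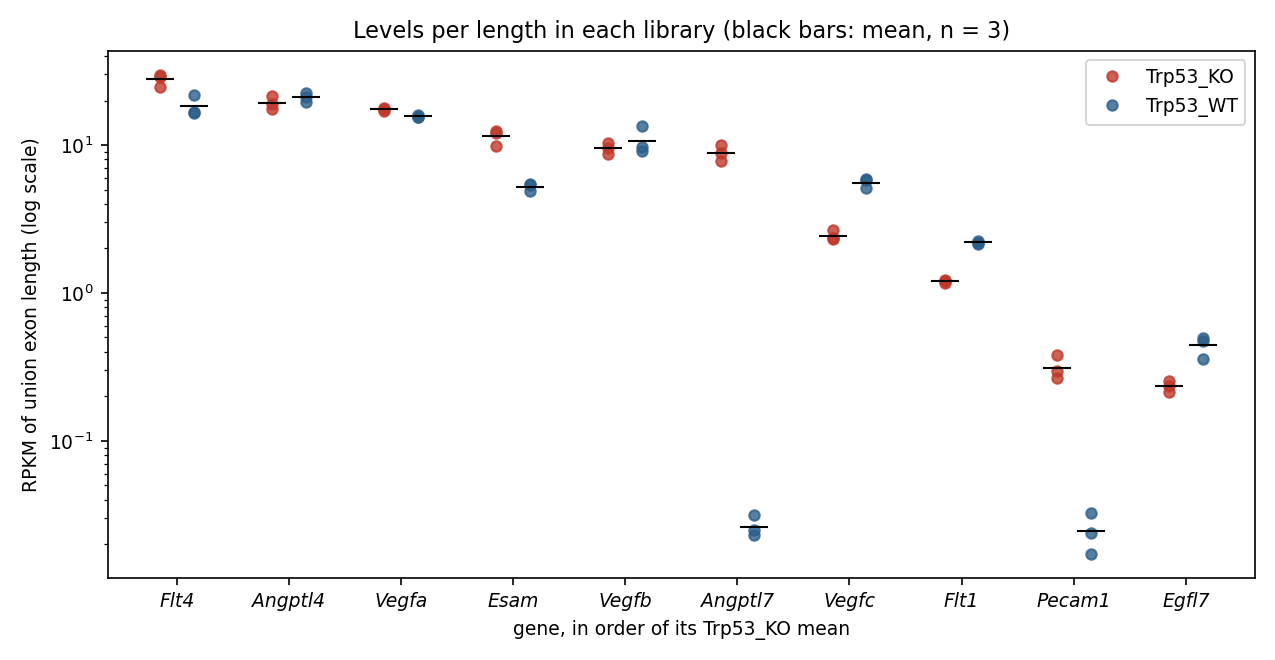
RPKM over union exon length (log axis) is plotted for each gene in each library, Trp53_KO at left in red and Trp53_WT at right in blue, with means as black bars. Kdr, at 0, cannot be drawn on a log axis, and Flt4 is added as the VEGFC receptor. Angptl7 and Pecam1 span the widest gaps between genotypes, and the ligands Vegfa and Angptl4 are near the top in both.

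Flt4, the VEGFC receptor, had the highest level per length of the VEGF receptor genes. It was at 229 ± 23.6 CPM in Trp53_KO and 151 ± 25.1 CPM in Trp53_WT (SD, n = 3 each), and it rose with a log2 fold change of 0.60 ± 0.12 (SE; edgeR, Benjamini-Hochberg adjusted p = 0.0039). Of the summed RPKM of Flt1, Kdr and Flt4, Flt1 held 4.17 ± 0.49% in Trp53_KO and 10.8 ± 1.3% in Trp53_WT, and Flt4 held the rest. The ligand gene Vegfc and this receptor gene thus differed in direction.

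Some of the genes beside the members on the chromosome (GENCODE M21, GRCm38) were called, where 30.3% of all tested genes were called in either direction. These neighbours are a description. Angptl7 (chromosome 4, 148495183 to 148500460, minus strand) lies inside Mtor, which is on the opposite strand, with 0 shared exon bases. Mtor, a growth-control kinase, was at 131 ± 9.66 CPM in Trp53_KO and 90.8 ± 10.5 CPM in Trp53_WT and rose (log2 fold change 0.53, edgeR with Benjamini-Hochberg adjusted p = 0.0021). Exosc10, the nearest coding gene at higher coordinates, was not called. The change of Mtor was far smaller than that of Angptl7.

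Around Pecam1 (chromosome 11, 106654217 to 106750628) the nearest coding gene, Milr1, 597 bases away, had 2 counts in all libraries together. Tex2, 40793 bases away on the other side, rose by 0.39 on the log2 scale (edgeR, Benjamini-Hochberg adjusted p = 0.0036). Around Esam (chromosome 9, 37528078 to 37538319) Vsig2, 935 bases downstream on the same strand, was at 2.19 ± 0.65 CPM in Trp53_KO and 1.05 ± 0.46 CPM in Trp53_WT (adjusted p = 0.036). Vsig2 did not pass when Trp53_KO replicate 1, Trp53_KO replicate 3 or Trp53_WT replicate 3 was left out, or with the replicate block (adjusted p up to 0.13). Msantd2, on the other side of Esam, was not called. Around Flt1 (chromosome 5, 147561604 to 147726011) neither Pan3 nor Pomp was called, so the fall of Flt1 was not shared by its neighbours at this threshold. On the 2 sides of Vegfc (chromosome 8, 54077606 to 54187096) Neil3, 438540 bases away, fell with -0.62 (adjusted p = 0.017) and Spcs3, 333336 bases away, was not called. The neighbours of Kdr were Kit, with 1 count in all libraries, and Srd5a3, which fell with -0.58 (adjusted p = 0.0017).

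Repeat elements in these genes gave another readout from the same libraries. The authors' deposited table held 386 rows, each a repeat locus and read direction, in the member genes or within 10 kb of them, and 1 of them (0.259%) passed an FDR under 0.05, against 0.672% of 773731 rows in the table. That row was a B1_Mur2 element, a SINE, in the 3' UTR of Angptl7 (chromosome 4, 148495602 to 148495752) read on the strand of Angptl7, with a log2 fold change of 8.08 and an FDR of 6.15e-19 in the authors' deposited table. Reads of the opposite direction at that element had a log2 fold change of -0.29 and an FDR of 0.966 in the authors' deposited table. Since the element is part of the Angptl7 transcript, its value repeats the change of the gene on the strand of the gene.

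Ligand and receptor genes outside the set showed no common direction. Of 16 other angiogenic ligand genes, 7 were tested, of which 3 rose, 2 fell and 2 were not called, with a median log2 fold change of 0.20. Pdgfb, the platelet-derived growth factor that recruits pericytes, was at 332 ± 17.6 CPM in Trp53_KO and 190 ± 4.34 CPM in Trp53_WT and rose by 0.81 on the log2 scale (edgeR, Benjamini-Hochberg adjusted p = 9.0e-06). Jag1, a Notch ligand, rose by 0.34, while Fgf1 and the ephrin gene Efna1 fell with -2.04 and -0.67. The rise of Fgf2, 1.01, did not hold in 7 of 15 alternatives (adjusted p up to 0.12). The chemokine gene Cxcl12, with 0.20, did not pass (adjusted p = 0.077 by edgeR with Benjamini-Hochberg), but it passed with 0.25 without Trp53_WT replicate 1 (adjusted p = 0.010) and with 0.27 without Trp53_KO replicate 3 (0.036). The angiopoietin gene Angpt1 had 0 counts in all libraries.

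Of 17 other endothelial-type receptor genes, 10 were tested, of which 2 rose and 4 fell, with a median of -0.25. The fibroblast growth factor receptor gene Fgfr1 rose by 2.26 on the log2 scale, to 47.0 ± 4.08 CPM in Trp53_KO, against 9.87 ± 1.70 CPM in Trp53_WT (edgeR, Benjamini-Hochberg adjusted p = 9.3e-07). The semaphorin receptor gene Plxnd1 fell with -2.07 and the integrin gene Itgb3 with -0.93. Nrp1, a co-receptor of VEGFA, fell with -0.21, a call that 8 of 15 alternatives did not keep (adjusted p up to 0.089). Of 5 other angiopoietin-like genes 2 were tested, of which Angptl2 fell with -0.45 (adjusted p = 0.0056).

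Inhibitors of angiogenesis also went both ways, with 3 of 7 tested genes higher, 1 lower and a median of 0.35. Serpinf1, which encodes the anti-angiogenic factor PEDF, had 445 counts in Trp53_KO and 13 counts in Trp53_WT over the 3 libraries of each (log2 fold change 5.01 ± 0.30 SE, edgeR with Benjamini-Hochberg adjusted p = 1.5e-06). Thbs1, thrombospondin, fell with -0.60, and the metalloproteinase inhibitor gene Timp3 and the protease gene Adamts1 rose by 0.35 and 0.39.

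Genes that share known inducers with Vegfa and Angptl4 were examined beside them. Of 18 tested hypoxia genes 3 rose, 4 fell and 11 were not called, with a median of -0.09, and Egln3 rose by 1.21 while Pdk1 and Hk2 fell with -0.98 and -0.63. Of 6 tested hypoxia factor genes Hif1a alone passed, with -0.20 (edgeR, Benjamini-Hochberg adjusted p = 0.042), and 11 of 15 alternatives did not keep that call (adjusted p up to 0.17). Epas1 was at 11.96 ± 2.17 CPM in Trp53_KO and 10.03 ± 5.56 CPM in Trp53_WT and was not called, but without Trp53_WT replicate 1 it passed with 0.81 (adjusted p = 3.9e-04). Of 8 tested PPAR genes, 1 rose and 3 fell, with a median of -0.22, and the fall of Acadl did not hold in 5 of 15 alternatives (adjusted p up to 0.18). The receptor gene Pparg fell to 0.253 ± 0.099 CPM in Trp53_KO, against 3.37 ± 0.60 CPM in Trp53_WT. Pdk4 fell with -0.93 and Cpt1a rose by 0.34, beside an Angptl4 that was not called.

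**Figure D4:**
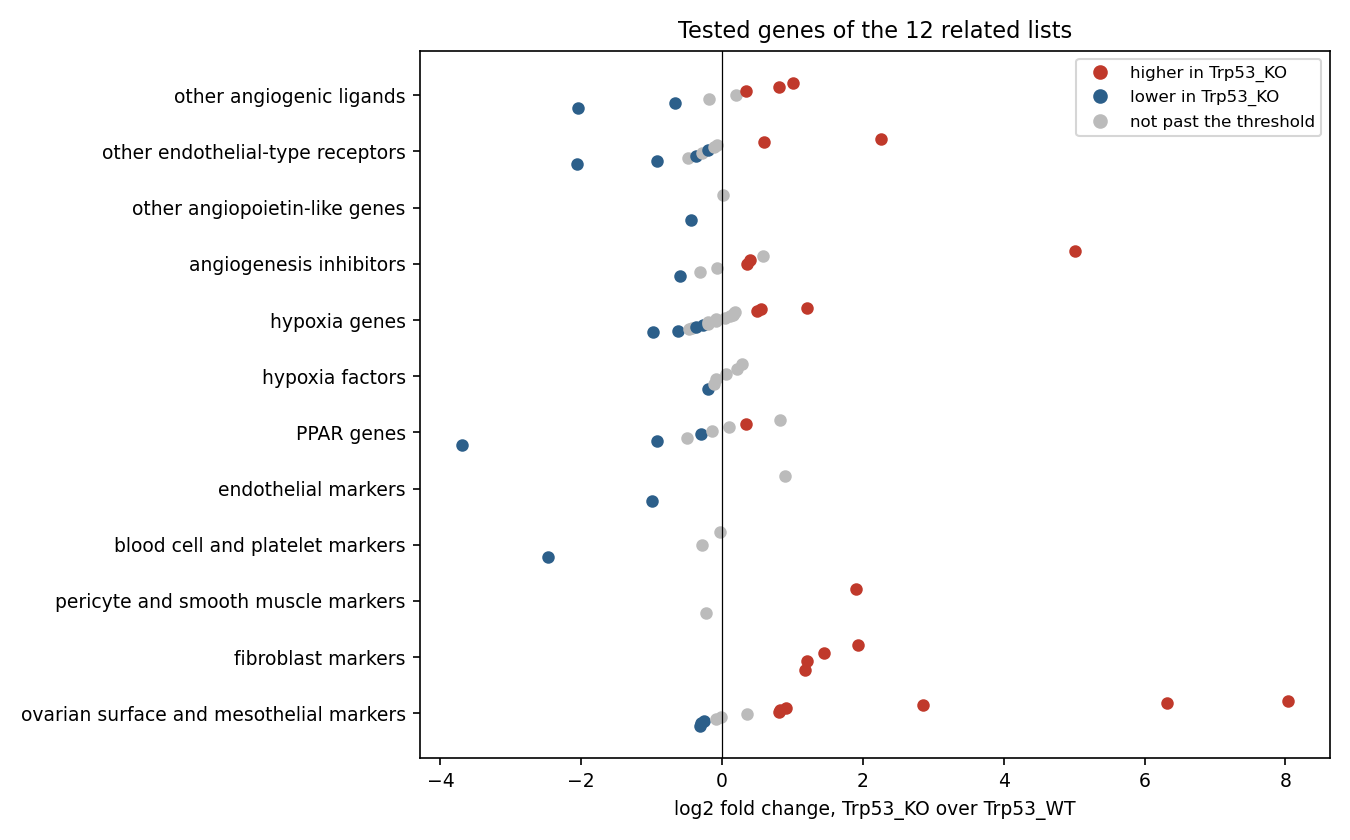
Each point is a tested gene of a related list, placed by its log2 fold change of Trp53_KO over Trp53_WT, in red where higher, blue where lower and grey where not past the threshold. The ligand, receptor, inhibitor, hypoxia and PPAR lists hold points on both sides of 0, and the fibroblast markers lie between 1.18 and 1.93.

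Markers of endothelial and blood cells mostly had few or 0 counts, with the limit on reading a 0 given for Kdr. Of 20 endothelial markers other than the members, 9 had 0 counts in all libraries, among them Cdh5, Cldn5, Emcn, Erg and Sox17, and the list summed to between 11.4 and 12.4 CPM in Trp53_KO and between 18.3 and 23.5 CPM in Trp53_WT. Most of that sum was Ecscr, which encodes an endothelial adhesion regulator and fell to 10.3 ± 0.31 CPM in Trp53_KO, against 20.5 ± 2.72 CPM in Trp53_WT (edgeR, Benjamini-Hochberg adjusted p = 1.2e-04). Of the 20 markers 2 were tested, and Nos3 was not called. Among markers too low to test, Robo4, a guidance receptor of endothelium, had 15 counts in Trp53_KO and 1 count in Trp53_WT, a ratio of 14.6 after scaling to library size with an exact 95% interval of 2.25 to 617 for counting error alone. Plvap, a protein of endothelial pores, had 16 counts in Trp53_KO and 3 counts in Trp53_WT (ratio 5.21, interval 1.49 to 27.9), and Vwf, which encodes von Willebrand factor, had 0 counts in Trp53_KO and 16 counts in Trp53_WT. Low endothelial markers thus lay on both sides, and their part in the changes of Pecam1, Esam, Flt1 and Egfl7 was not tested.

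Of 12 blood cell and platelet markers 4 were at 0, among them Itgam and Gp9, and 3 were tested, of which Cd14 fell with -2.47. The list summed to between 10.3 and 11.9 CPM in Trp53_KO and between 33.7 and 36.8 CPM in Trp53_WT. Most of the Trp53_WT sum was Cd14, at 5.09 ± 1.03 CPM in Trp53_KO and 28.3 ± 1.46 CPM in Trp53_WT. The other tested markers were not called: Cd68, at 3.98 CPM in Trp53_KO and 4.86 CPM in Trp53_WT, and Itga2b, at 1.80 and 1.82 CPM. Of 10 pericyte and smooth muscle markers 3 were at 0 and 2 were tested, of which Acta2 rose by 1.90, and the list summed to between 1.70 and 2.42 CPM in Trp53_KO and between 1.039 and 1.501 CPM in Trp53_WT. Of 8 fibroblast markers Lum was at 0 and 4 were tested, all 4 of which rose, and the list summed to between 695 and 849 CPM in Trp53_KO and between 226 and 288 CPM in Trp53_WT. Most of that sum was Col1a1, at 551 CPM in Trp53_KO and 145 CPM in Trp53_WT, and Dcn, at 235 and 102 CPM. The untested Col1a2 and Thy1 had 3 and 1 counts over all 6 libraries, and Fap had 2 counts in Trp53_KO and 7 counts in Trp53_WT. Col15a1 among the 4 tested markers lost its call in 6 of 15 alternatives. All 12 ovarian surface and mesothelial markers were tested, of which 6 rose and 3 fell, with sums between 4305 and 4587 CPM in Trp53_KO and between 3977 and 4057 CPM in Trp53_WT. Among the 6, Lrrn4 had 3605 counts in Trp53_KO and 13 counts in Trp53_WT, a log2 fold change of 8.04. Amhr2 and Upk3b rose by 6.32 and 2.85, and Msln was among the 3 that fell, with -0.26. The tested fibroblast markers and these 6 markers moved with Pecam1, Esam and Angptl7. The part of either list in those rises was not tested. The other tested pericyte and smooth muscle marker, Des, did not pass, with a log2 fold change of -0.22 (adjusted p = 0.67 by edgeR with Benjamini-Hochberg). In these bulk samples fewer cells of a type and less RNA per cell cannot be told apart.

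The genes whose log2 CPM ran closest to each called member over the 6 libraries were mostly changed between genotypes themselves. For Angptl7 they were Rab38, with 3.86 CPM in Trp53_KO and 0 in Trp53_WT, and Rcn3 (Pearson r = 0.9999 each, n = 6 libraries). They were Pnrc1 and Vnn1 for Flt1 (r = 0.9996 and 0.9994), Pxdc1 and Nfkbie for Vegfc (r = 0.9996 and 0.9985), Rgs11 and Slc37a1 for Esam (r = 0.9991 and 0.9984), St8sia1 and Dnah7b for Pecam1 (r = 0.9986 and 0.9985), and Dusp28 and Usp18 for Egfl7 (r = 0.9954 and 0.9934). The libraries share genotype and depth, and 300 genes were above 0.99 with Angptl7 and 243 with Flt1, so these values describe the split between genotypes.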

How the data were processed

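The members and gene lists were chosen with earlier results of these data known. Per the labels' protocols, libraries were made with a stranded total RNA kit. Per the submitters' processing notes, the tools were STAR, featureCounts and edgeR and the build was mm10. Their versions and the strand option of counting were not given in the sources used here. Raw whole-number counts for each gene symbol were deposited, and for repeats a fold change, read here as log2, with an FDR, an adjusted p-value, per locus and read direction. The median ratio of the deposited log2 value to the gene's own was 1.03 over 553 called exon and UTR rows of genes changed over 2-fold, where natural logarithms would give 0.693, and the read direction matched the strand of the gene in 88.0% of 38905 exon and 3' UTR rows. The table of higher repeats was not used.

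Counts were analysed with edgeR 4.0.16 in R 4.3.3: filterByExpr, TMM, a quasi-likelihood fit with genotype as its term on all 6 libraries, and Benjamini-Hochberg adjustment over 13651 tested of 41327 genes (18744 had no count) at 0.05. The biological coefficient of variation was 9.75%. SE is the absolute log2 fold change over the square root of F; 95% fold intervals use 4 degrees of freedom and are approximate. Count ratios carry exact binomial intervals, and like the floor of 3 counts they cover counting error only: without molecular identifiers, reads are not independent molecules. RPKM divides TMM-scaled CPM by union exon length in GENCODE M21, which may differ from the annotation used by the authors. No replicate pair agreed within sampling noise, so none was merged. On simulated counts for the same comparison (13484 genes), the fit recovered 88 of 97 genes with a log2 change of 1 and 98 of 98 with a log2 change of 2, with 0 of wrong sign and 8 false calls. Named genes were all members, per list up to 4 genes by lowest adjusted p, overlapping or neighbouring genes, and for each called member at 1 CPM or more the 2 genes with the highest correlation of log2 CPM; not every gene so taken is printed. Flt4, Epas1, Nos3 and genes at 0 counts belong to the lists, and those beyond the rule were chosen after their values were seen. Alternatives were other size factors, other filters, DESeq2 1.42.0, limma-voom (limma 3.58.1), the replicate block, each library left out, and a threshold of 0.01.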

Additional observations from a re-analysis of the deposited data

How the results depend on the processing

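Of the 9 tested members, Angptl7, Pecam1, Esam, Vegfc and Flt1 kept their direction and their call, and Vegfa and Angptl4 their direction and the lack of one, under all 15 alternatives. Egfl7 lost its call in 4 of them, including the threshold of 0.01, and Vegfb, at -0.26 to 0.02 with 1 library left out, turned to 0.0156 without Trp53_WT replicate 1. Members called numbered 5 or 6 under every alternative. All genes called numbered 2578, of which 1199 were higher, at the threshold of 0.01, and 2977 to 4984 with 1 library left out, of which 1388 to 2418 were higher, the most being without Trp53_WT replicate 1. Called hypoxia factors numbered 0 with RLE, upper quartile or total scaling, with no filter, in DESeq2, with the replicate block and at 0.01, and 0 to 2 with 1 library left out. Called endothelial markers numbered 4 with no filter, where more low genes are tested, and 1 to 2 with 1 library left out. With coding length in place of union exons, 12 of 20 places in the orders of levels were kept, and 14 with the longest transcript. The replicate numbers did not pair the libraries: same-numbered libraries had deviations correlated at -0.05, 0.08 and -0.12. The replicate block left 3806 genes called and the 6 members called as before. Pecam1 and Egfl7 rest on 114 and 130 counts over all 6 libraries, which limits the precision of their fold changes.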

Other observations

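Sense repeat rows inside the 2 longest member genes differed in their deposited values. In the authors' deposited table the 74 rows inside Vegfc read on the strand of the gene had a median log2 fold change of -1.51, with 57 below 0, and the 82 rows inside Flt1 had a median of -0.003, with 41 below 0. None of these rows passed an FDR under 0.05 in the authors' deposited table, where the lowest was 0.150 in Vegfc and 0.535 in Flt1. The log2 fold changes of the gene counts were -1.19 for Vegfc and -0.87 for Flt1. The sense rows inside Vegfc, and nearly all of those inside Flt1, lay in introns. The Flt1 rows annotated as 3' UTR had log2 fold changes of -0.93, -0.86, 0.64, -0.24, -0.94 and -0.74 in the authors' deposited table. The pooled median of Vegfc is thus a value of intron rows, and that of Flt1 is mainly so. Several rows of both genes shared nearly the same value, such as -0.76 or -1.73, so the medians are only a rough guide to size. No depth is given for the rows of either gene, and the difference between the genes was not tested.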
